A study of Rattus norvegicus with 36 samples.

Results

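The muscle actin genes *Acta1*, *Actc1*, *Acta2* and *Actg2* were followed with 6 further genes of the same transcription programme: *Tagln*, *Cnn1*, *Tpm1*, *Tpm2*, *Vcl* and *Srf*. These 10 genes were found by name among the 24275 genes listed, and each had 1 identifier. The set was chosen by an earlier look at these data, in which *Acta1* was higher in hypoxic cells given the Trim AG mimic than in those given miR-125b. The values of Trim AG against miR-125b in hypoxia are therefore described without a test. No p is given for any of the 10 genes wherever the hypoxic Trim AG libraries enter, and calls there are a description. The Hypoxia miR-125b libraries were the other side of the comparison the genes were chosen with. Tests that use them keep their p, which is not independent of that choice, above all for *Acta1*.

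The cells were H9C2, an established myoblast line from rat heart, transfected with 25 nmol/L of a small RNA. The mimics were a control RNA (MC), miR-125b, and 4 of its 3′ isomiRs, namely Plus A with an added A and Trim A, Trim AG and Trim AGU with those bases removed, so that every group, controls included, was transfected. Each of the 6 small RNAs was used in normoxia and in hypoxia with 3 libraries a group, and counts of 11 of the 12 groups (33 libraries, without Normoxia MC) were used. Hypoxic cells were kept in serum-free low-glucose medium, whereas normoxic cells received fresh normal medium, so that oxygen, serum and glucose cannot be told apart in any comparison of hypoxia with normoxia. The RNA was from whole cultures of 1 cell line, in which fewer cells of a type and less RNA per cell cannot be told apart. No label says whether the 3 libraries of a group came from separate cultures, so p-values measure the spread between these libraries.

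Serum response factor (SRF, made by *Srf*) is a transcription factor that binds the CArG box, a short A/T-rich element found at many muscle and cytoskeletal genes. Its cofactors of the MRTF family are held in the cytoplasm by unpolymerised actin and enter the nucleus when serum drives actin into filaments. Myocardin is a muscle-specific cofactor of SRF. In adult tissues *Acta1* encodes the skeletal, *Actc1* the cardiac, *Acta2* the vascular smooth and *Actg2* the enteric smooth muscle actin, and myoblasts and activated fibroblasts can carry several of them. *Tagln* (transgelin, SM22) and *Cnn1* (calponin 1) bind actin filaments in smooth muscle, *Tpm1* and *Tpm2* encode tropomyosins that lie along the filament, and *Vcl* encodes vinculin, which ties filaments to adhesion sites.

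The mimics differ at the 3′ end and share the seed through which a miRNA pairs with its targets. Their sequences are shown because every comparison of isomiRs rests on the last bases. They were built from the RefSeq mature rat miR-125b-5p (GRCr8 chr11:29732588-29732609, plus strand) and the base changes that the group names state. Capitals mark the seed, bases 2 to 8.
miR-125b: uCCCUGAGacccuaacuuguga
Plus A: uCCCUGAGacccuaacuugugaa
Trim A: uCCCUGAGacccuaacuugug
Trim AG: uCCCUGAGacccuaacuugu
Trim AGU: uCCCUGAGacccuaacuug

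RefSeq promoters (GRCr8, 250 bases before to 50 after the start site) were at hand for 9 of the 10 genes, *Tagln* being the gene without an entry. An exact CArG box, searched on both strands, was in 3 of these 9, against 548 of all 33469 promoters (1.64%). They are shown, in capitals within their flanks and on the strand of the gene, because SRF binds this element. The stretch printed for *Acta1* (chr19:68784254-68784313, minus strand) holds a box at -94 to -85 from the start site. That for *Actc1* (chr3:121271791-121271850, minus strand) holds a box at 3 to 12. That for *Srf* (chr9:21923970-21924049, plus strand) holds boxes at -81 to -72 and at -61 to -52. No exact match in the windows of the other 6 says only that these letters are absent there.
Acta1: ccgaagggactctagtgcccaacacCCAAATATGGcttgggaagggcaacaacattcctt
Actc1: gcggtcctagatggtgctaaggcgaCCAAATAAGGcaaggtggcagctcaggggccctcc
Srf: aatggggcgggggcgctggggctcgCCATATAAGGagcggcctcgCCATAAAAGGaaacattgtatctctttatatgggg

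Library totals ran from 28361216 to 42672584 counts (median 29923694), and the 3 Hypoxia Trim AG libraries were the deepest, at 39940087 or more. Hypoxia Trim AGU replicate 2 had counts in 16981 genes, the fewest of any library, and it enters every result of that group. Levels are given as CPM, the counts of a gene scaled to the library total. Among the 6 myoblast markers, *Myog*, *Myod1*, *Chrna1* and *Des* were at 352, 63.3, 30.4 and 1.79 CPM in Hypoxia MC, *Myf6* was below 1 CPM and *Myf5* at 0. Of the cardiac markers *Gata4* was present at 9.18 CPM in that group and *Nkx2-5*, *Tbx5* and *Ryr2* were below 1 CPM in every group, so the label of a cardiac line is borne by few of its defining markers. The summed level of the leukocyte markers *Ptprc* and *Cd68* did not exceed 2.54 CPM in any library. By *Cav1*, a gene picked only once its values were known, libraries went against their labels: Normoxia Plus A had 269, 98.0 and 98.3 CPM in replicates 1 to 3 and Normoxia miR-125b 102, 282 and 263, whereas hypoxic Plus A libraries had 93.9 to 100.2 and hypoxic miR-125b libraries 241 to 246. Calls that change without these replicates 1 are given with and without them. The coordinates of the tables carry no build in the sources used here; they place *Acta1* at chr19:56674074-56677084 and *Actc1* at chr3:105507403-105512939, both on the minus strand.

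*Srf*, the regulator itself, was a gene of moderate level with a narrow range. Its group means ran from 92.1 CPM in Hypoxia miR-125b to 210.4 in Normoxia Trim AG, a span of 2.28-fold. In hypoxia the libraries had 97.2, 106 and 99.7 CPM under MC, 93.1, 89.8 and 93.5 under miR-125b, and 209, 177 and 190 under Trim AG. All 3 Trim AG libraries thus lay above every other hypoxic library. In normoxia *Srf* had 131, 127 and 138 CPM under miR-125b and 213, 213 and 205 under Trim AG, again without overlap.

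*Acta1* had the second widest span of the 10 genes, 8.82-fold between the lowest and the highest group mean. In hypoxia it had 165, 160.5 and 173 CPM under MC and 17.4, 19.4 and 19.7 under miR-125b. Plus A libraries held 25.2, 25.4 and 25.3 CPM and Trim A libraries 32.9, 32.5 and 30.4. Trim AG libraries had 181, 139.9 and 160.5 CPM, a range that overlaps that of MC, and Trim AGU libraries lay between at 67.0, 68.7 and 53.4. In normoxia Trim AG again had the highest values: *Acta1* was at 27.9, 23.2 and 22.2 under miR-125b, 20.9, 29.1 and 33.9 under Plus A, 39.9, 40.8 and 39.1 under Trim A, 81.7, 90.0 and 86.2 under Trim AG, and 36.0, 41.4 and 36.6 under Trim AGU. From the lowest group mean upward, the neighbours whose libraries overlapped were Normoxia miR-125b, Hypoxia Plus A, Normoxia Plus A and Hypoxia Trim A in a chain, Normoxia Trim AGU with Normoxia Trim A, and Hypoxia Trim AG with Hypoxia MC.

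*Actc1* was high in the mimic control alone. Hypoxia MC libraries had 33.2, 31.5 and 35.0 CPM, and none of the other 30 libraries exceeded 1.84. Hypoxia miR-125b had 0.928, 1.58 and 1.84 CPM, from 27 to 57 reads. Hypoxia Trim AG had 0.436, 0.175 and 0.469 CPM, so that the group in which *Acta1* stood at the level of MC had *Actc1* among its lowest hypoxic values. Normoxia miR-125b held 2, 2 and 10 reads, and folds against it rest on these few reads.

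The smooth muscle actins were far more abundant. Per length, as FPKM, the fragments per kilobase of transcript scaled to library size, *Acta2* made up 72.2% to 83.3% and *Actg2* 15.1% to 26.8% of the summed level of the 4 muscle actins in group means, *Acta1* 0.206% to 3.24%, and *Actc1* at most 0.625%. The 4 genes together took 0.500% ± 0.0128 (SD, n = 3) of all counts in Hypoxia MC and 1.52% ± 0.0303 in Hypoxia Trim AG, the lowest and the highest group. The cytoplasmic actins *Actb* and *Actg1* together took 0.640% ± 0.0121 and 0.449% ± 0.0105 in the same groups. The muscle actins are near-identical in coding sequence, and how reads shared between copies were counted is not given in the sources used here, so each level is uncertain by that share. *Acta1* was highest in Hypoxia MC, where *Acta2* was lowest, and *Acta1* was 160.5 against 86.0 CPM in hypoxic and normoxic Trim AG, where *Acta2* was 10882 against 10249.

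*Acta2* was lowest in Hypoxia MC, with 4051, 4128 and 3921 CPM, and highest in Hypoxia Trim AG, with 11154, 10693 and 10798. Under miR-125b it had 7290.4, 7094 and 7405 CPM in hypoxia and 7576, 7815 and 7745 in normoxia. *Actg2* had 758, 803 and 738 CPM in Hypoxia MC and 1622, 1638 and 1608 in Hypoxia miR-125b. Hypoxia Trim AG libraries reached 4122, 4020.3 and 4235 CPM, and Hypoxia Trim AGU 2906, 4351 and 2951, with replicate 2 apart. No library of any mimic overlapped MC in these genes.

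*Tagln* followed the smooth muscle actins: 1602, 1648 and 1549 CPM in Hypoxia MC, 2492, 2481 and 2471 in Hypoxia miR-125b and 4639.8, 5519 and 5299 in Hypoxia Trim AG. *Cnn1* did not differ in that way between MC (144, 153 and 147 CPM) and miR-125b (140.2, 149.9 and 137 CPM) in hypoxia, whose ranges overlapped. It was higher in normoxia in every mimic group and highest in Normoxia Trim AG at 723, 750.4 and 745 CPM.

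The tropomyosins *Tpm1* and *Tpm2* were highest in different groups. *Tpm1* had 1276, 1314 and 1288 CPM in Hypoxia MC, 664, 679 and 655 in Hypoxia miR-125b, and 1599.9, 1830.5 and 1666 in Normoxia Trim AG, its highest group. *Tpm2* had 874, 914 and 877 CPM in Hypoxia MC and its highest group mean in Hypoxia Trim AGU, at 1481, 2329 and 1791. That range overlapped the 1529 to 1911 CPM of Hypoxia Trim AG, and its highest value was that of replicate 2. *Vcl* had 349, 364 and 365 CPM in Hypoxia MC, 339.8, 355 and 349.8 in Hypoxia miR-125b, and 897, 892 and 935 in Normoxia Trim AG, with no overlap between the last group and the others.

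**Figure D1:**
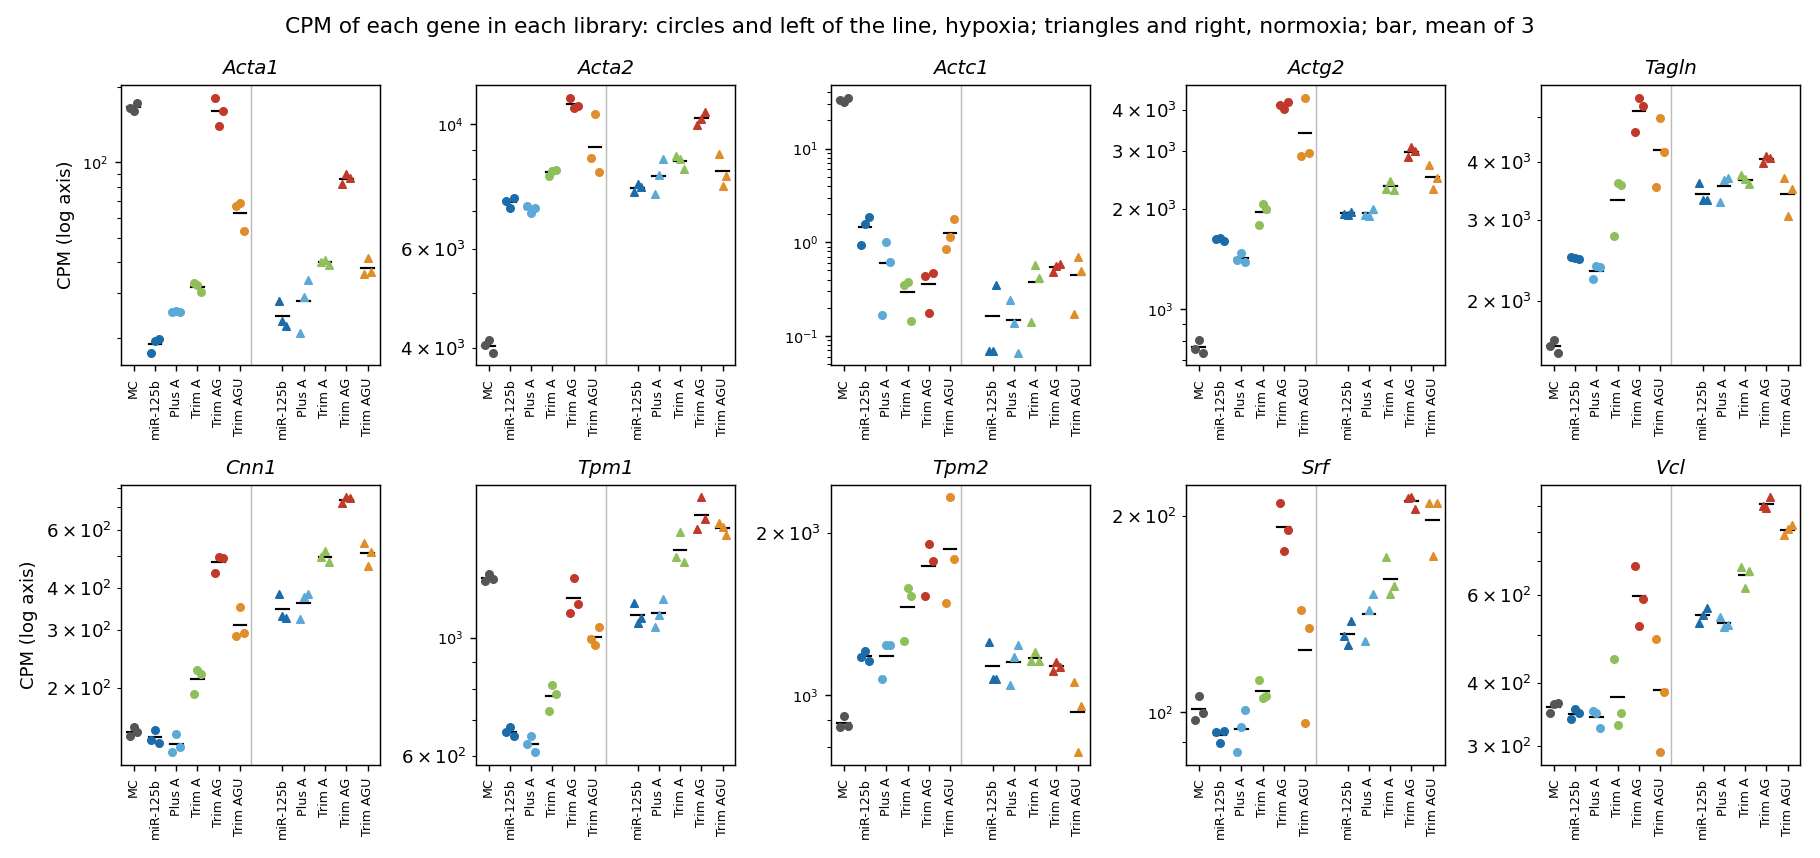
CPM (log axis) of the 10 genes in each of 33 libraries, by small RNA, with hypoxia as circles left of the grey line, normoxia as triangles right of it and the mean of 3 libraries as a bar. *Acta1* stood at 139.9 to 181 CPM in Hypoxia Trim AG, overlapping Hypoxia MC, while *Actc1* stayed at or below 0.469 CPM there.

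The first question was how each small RNA differed from MC in hypoxia. Under miR-125b the striated muscle actins fell and the smooth muscle actins rose. *Acta1* was 8.59-fold and *Actc1* 22.2-fold lower than in MC, whereas *Acta2* was 1.85-fold and *Actg2* 2.17-fold higher and *Tagln* 1.59-fold higher. *Tpm1* fell by 0.92 on the log2 scale. A gene was called at an adjusted p under 0.05 in edgeR's quasi-likelihood test with Benjamini-Hochberg adjustment over all genes tested and a change of at least 1.5-fold, which here called 6 of the 10, against 21.9% of all genes. The changes (log2 ± SE, with the edgeR adjusted p) were -3.10 ± 0.0491 (9.85e-12) for *Acta1*, -4.47 ± 0.151 (2.09e-09) for *Actc1*, 0.89 ± 0.0293 (1.87e-09) for *Acta2* and 1.12 ± 0.0346 (1.17e-09) for *Actg2*. The miR-125b libraries were in view when the genes were chosen, so these p are not independent of that choice. *Srf*, *Vcl* and *Cnn1* gave -0.10, -0.01 and -0.02 and were not called, and *Tpm2* passed the p with a change of 0.45, below the fold limit. *Myog*, which drives myoblast differentiation, was at 352 ± 8.49 CPM (SD, n = 3) in MC and 63.9 ± 0.835 under miR-125b, and its part in these differences was not tested.

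Plus A and Trim A shared that direction. Plus A called 5 of the 10 genes (background 24.8%), with *Acta1* at -2.69, *Actc1* at -5.77, *Acta2* at 0.83, *Actg2* at 0.92 and *Tpm1* at -1.01; *Tagln*, at 0.56, missed the fold limit. Trim A called 7 (28.1%), adding *Tagln* at 1.10 and *Tpm2* at 0.76, with *Acta1* at -2.33 and *Actc1* at -6.78. As all 5 comparisons share the MC libraries, their values are set side by side and no agreement between them is counted.

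Trim AG had the most genes of the set called, and the largest share of all genes was called there too (37.2%). It called 8 of the 10 genes, *Acta1* not among them. Of these, 7 were higher: *Actg2* 5.62-fold, *Cnn1* and *Tagln* both 3.37-fold, *Acta2* 2.82-fold, *Tpm2* 2.05-fold, *Srf* 1.98-fold and *Vcl* 1.73-fold. *Srf* rose by 0.99 ± 0.0827 (SE) on the log2 scale and *Actg2* by 2.49 ± 0.0729. These Trim AG libraries were in view when the genes were chosen, so the calls and values are a description. *Actc1* fell by 6.44. *Acta1* differed by 0.01 ± 0.0942 and *Tpm1* by -0.06 ± 0.0831, each within its error. The median of the 10 changes was 1.01, against 0.00325 over all genes tested.

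Trim AGU called 7 (23.8%), with *Acta1* at -1.25 and *Actc1* at -4.58 lower and *Actg2* at 2.31, *Tagln* at 1.56, *Acta2* at 1.33, *Tpm2* at 1.23 and *Cnn1* at 1.22 higher. Its SE were larger, 0.108 to 0.283, and its 3 libraries spread widely: *Vcl* had 490.0, 292 and 385 CPM. Without Hypoxia MC replicate 3, *Tpm2* lost its call (6 of 10).

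**Figure D2:**
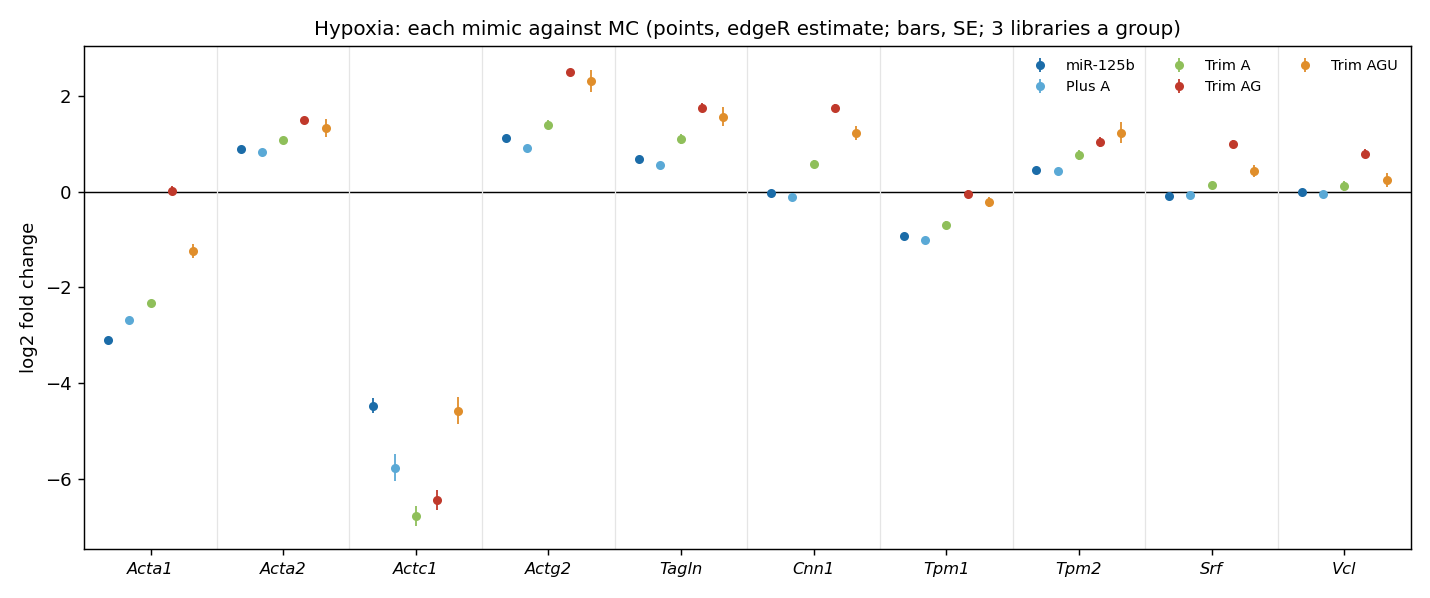
Log2 fold change (y axis) of the 10 genes (x axis) for each of 5 mimics against MC in hypoxia, with points for the edgeR estimate and bars for the SE of 3 libraries a group. *Acta1* was lower than in MC under 4 of the 5 mimics and lay at 0.01 under Trim AG, and *Actc1* was lower under all 5.

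The next question was how the isomiRs differed from miR-125b itself. In hypoxia Trim AG held 8.62-fold more *Acta1* than miR-125b, the difference with which the genes were chosen, and it is given with the others as a description. The log2 changes were 3.11 for *Acta1*, 1.77 for *Cnn1*, 1.36 for *Actg2*, 1.08 for *Srf*, 1.07 for *Tagln*, 0.85 for *Tpm1*, 0.79 for *Vcl*, 0.60 for *Acta2*, 0.58 for *Tpm2* and -1.98 for *Actc1*. Among the genes that were higher, *Tpm2* and *Acta2* had the smallest folds, 1.49 and 1.52. Over all genes 19.3% were called in this comparison, and no call of the 10 is read from it. In the same Trim AG libraries *Myog* was at 11.3 ± 0.722 CPM (SD, n = 3). The 6 myoblast markers summed to 39.9 to 53.0 CPM in Hypoxia Trim AG, 111.2 to 112.4 in Hypoxia miR-125b and 434 to 455 in Hypoxia MC. The 4 smooth muscle markers summed to 344 to 421, 217 to 222 and 208 to 230.2 CPM in these groups. Their means there were 264, 113 and 102 CPM for *Lmod1*, 101, 90.1 and 94.2 for *Smtn*, 11.9, 8.72 and 9.28 for *Myh11*, and 8.46, 8.53 and 14.3 for *Myocd*. The 4 fibroblast markers summed to 8009 to 17586, 39135 to 41190.0 and 25830.2 to 27599.6, nearly all from the collagen genes *Col1a1* and *Col3a1*. The marker *Thy1* did not share that pattern, at 113, 116 and 93.0 CPM, and *Pdgfra* was below 1 CPM. The part of these markers, and of the greater depth of the Trim AG libraries, in the differences was not tested.

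In normoxia Trim AG again lay above miR-125b in *Acta1*, 3.40-fold (1.77 ± 0.0904 on the log2 scale, edgeR adjusted p = 6.3e-06), with all 3 libraries above every miR-125b library. These libraries were not those of the comparison the genes were chosen with. Earlier results of these data were known at that choice, so the values are no independent repeat. *Cnn1* was 2.06-fold, *Vcl* 1.61-fold and *Srf* 1.55-fold higher, with log2 changes of 1.04 ± 0.0717, 0.69 ± 0.0470 and 0.63 ± 0.0544 and edgeR adjusted p of 1.58e-05, 1.58e-05 and 4.13e-05. *Actg2* and *Tpm1* (0.57 and 0.58) and *Acta2* (0.37) passed the p and not the fold limit, *Tagln* gave 0.21, and *Tpm2* did not change beyond its error (-0.05 ± 0.0685). The 5 genes called, against a background of 13.9%, included *Actc1* at 1.68 ± 0.579 (edgeR adjusted p = 0.0454), which rests on 14 to 18 reads against 2 to 10 and lost its call without any library but Normoxia miR-125b replicate 3. Without Normoxia miR-125b replicate 1, the library with the *Cav1* value of Plus A, *Acta1*, *Cnn1*, *Srf* and *Vcl* were called still, *Actc1* was lost and *Tpm1* gained, at 0.62. *Myog* in these groups was 44.5 ± 6.85 against 39.6 ± 3.90 CPM (SD, n = 3), and the 6 myoblast markers summed to 184 to 191 against 163 to 182. The 4 smooth muscle markers summed to 536 to 574 CPM under Trim AG and 368 to 394 under miR-125b, with 1 of 4 called higher. The 4 fibroblast markers summed to 21615 to 24471 and 32914 to 38388, with 2 of 4 called lower, while the fibroblast marker *Thy1* was at 219 against 196 CPM. The part of these markers in the differences was not tested.

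For Trim A fewer genes were called. In normoxia *Acta1* alone was called, 1.64-fold higher (0.71 ± 0.0887, edgeR adjusted p = 0.0094), against 0.414% of all genes; it lost its call without Normoxia Trim A replicate 2, and without Normoxia miR-125b replicate 1 *Cnn1* joined it (2 called). In hypoxia 3 genes were called (0.873%): *Acta1* at 0.77 ± 0.0750, *Cnn1* at 0.59 ± 0.0842 and *Actc1* at -2.30 ± 0.420 (edgeR adjusted p of 0.00701, 0.0224 and 0.039). None of them kept its call when any 1 of the 3 Hypoxia miR-125b libraries was left out, and 1 was called without Trim A replicate 2 or 3. The estimate for *Acta1* stayed at 0.72 to 0.81 throughout. The p in hypoxia use the Hypoxia miR-125b libraries, which were in view when the genes were chosen.

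For Trim AGU 4 genes were called in hypoxia (3.75%): *Acta1* 3.59-fold, *Cnn1* 2.34-fold, *Actg2* 2.27-fold and *Tpm1* 1.61-fold higher, with edgeR adjusted p of 0.00369, 0.0104, 0.0416 and 0.021. The number called was 0 without miR-125b replicate 1, 1 without miR-125b replicate 2 or 3 or Trim AGU replicate 3, and up to 6 without other libraries. *Acta1* kept its direction at 1.71 to 2.00. These hypoxic p also use miR-125b libraries that were in view when the genes were chosen. In normoxia *Acta1* was called, at 0.63 ± 0.108 (edgeR adjusted p = 0.00326), against 11.4% of all genes, and *Srf*, *Vcl*, *Cnn1* and *Tpm1*, at 0.58, 0.55, 0.55 and 0.53, passed the p and fell short of the fold limit, as did *Actg2* at 0.36. *Acta1* lay close to that limit and missed it without Trim AGU replicate 2 or miR-125b replicate 3, and 2 genes were called without Trim AGU replicate 2 or miR-125b replicate 1.

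For Plus A no gene of the set was called against miR-125b. In hypoxia 0 of the 10 were called (2.03% of all genes) by edgeR or DESeq2, 5 had an unadjusted p under 0.05, and *Acta1* and *Actg2* passed the adjusted p with changes of 0.41 ± 0.0667 and -0.21 ± 0.0360. In normoxia 0 of the 9 tested were called and 0% of all genes, with no gene of the set at an unadjusted p under 0.05 in edgeR, and *Actc1* not tested for low counts. Over all genes 404 had an unadjusted p under 0.05 (2.73%) and DESeq2 called 1 gene, none of this set. With replicate 1 left out of both groups, a comparison chosen after *Cav1* was seen, *Acta1* was 0.49 ± 0.0905 higher under Plus A (edgeR adjusted p = 0.0167) and *Cnn1* 0.24 ± 0.0465 (edgeR adjusted p = 0.0233), with *Tagln* at 0.17 (edgeR adjusted p = 0.0499) and still 0 genes of the set past the fold limit.

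**Figure D3:**
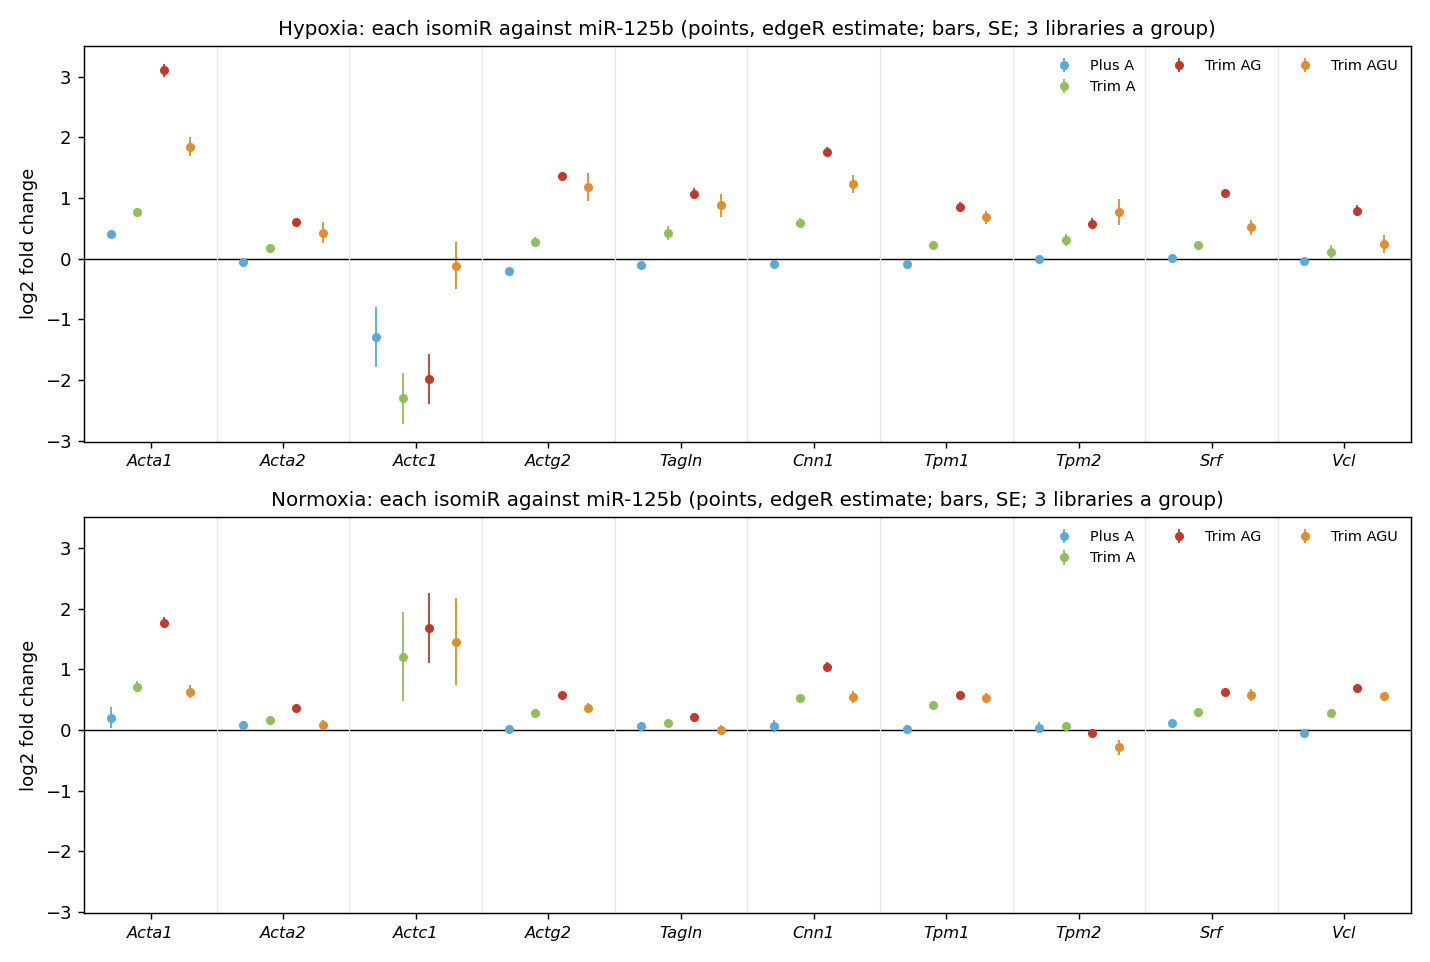
Log2 fold change (y axis) of the 10 genes (x axis) for each isomiR against miR-125b in hypoxia (top) and normoxia (bottom), with points for the edgeR estimate and bars for the SE of 3 libraries a group; *Actc1* under Plus A in normoxia was not tested. Trim AG lay highest in *Acta1* and *Cnn1* in both panels, at 3.11 and 1.77 in hypoxia and 1.77 and 1.04 in normoxia, and *Actc1* lay below 0 in the top panel and above it in the bottom panel, where counts were few.

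Hypoxia was compared with normoxia under the same mimic. Under miR-125b, *Cnn1* was 2.58-fold, *Tpm1* 1.76-fold, *Vcl* 1.66-fold and *Srf* 1.52-fold lower in hypoxia, with edgeR adjusted p of 8.01e-07, 1.23e-06, 1.26e-06 and 9.03e-06, and *Actc1* was higher by 3.06 ± 0.537 (edgeR adjusted p = 0.00118) from very low counts. These 5 of 10 stood against 20.9% of all genes. The hypoxic libraries here were in view when the genes were chosen, so these p are not independent of that choice. *Acta1*, *Acta2*, *Actg2* and *Tagln* were lower by 0.46, 0.17, 0.34 and 0.54 on the log2 scale, with adjusted p under 0.05 and below the fold limit, and *Tpm2* did not change beyond its error (-0.02 ± 0.0652). *Srf* stood near the fold limit and lost its call without Hypoxia miR-125b replicate 2 or Normoxia miR-125b replicate 3; without Normoxia miR-125b replicate 1 all 5 kept their calls. The smooth muscle markers *Myh11*, *Smtn*, *Lmod1* and *Myocd* summed to 217 to 222 CPM in these hypoxic libraries and to 368 to 394 in the normoxic ones. The 6 myoblast markers summed to 111.2 to 112.4 and 163 to 182 but went in different directions. Of 4 tested, 2 were called higher and 2 lower in hypoxia. *Myod1* was at 41.8 against 129.5 CPM and *Des* at 1.60 against 2.64, whereas *Myog* was at 63.9 against 39.6 and *Chrna1* at 4.43 against 0.899. The part of these markers in the differences was not tested.

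Under Plus A, 5 of 9 genes tested were called (22.8%), all lower: *Cnn1* at -1.52, *Tpm1* at -0.92, *Vcl* at -0.73, *Tagln* at -0.72 and *Srf* at -0.70. Without Normoxia Plus A replicate 1 there were 6, with *Actg2* at -0.59. Under Trim A, 4 were called (26.5%): *Cnn1* at -1.30, *Tpm1* at -0.99, *Vcl* at -0.88 and *Srf* at -0.65.

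*Acta1* and *Tpm2* were higher in hypoxia under Trim AG and Trim AGU. With Trim AG, *Acta1* was 0.91 higher. Of the 9 other genes 3 were called, a share near the 32.8% of all genes: *Tpm2* at 0.63 higher, *Cnn1* at -0.62 and *Vcl* at -0.60 lower. These values and calls are a description. *Srf* was at -0.13 ± 0.0826 and *Actg2* at 0.47. Without Hypoxia Trim AG replicate 2 *Tpm2* and *Vcl* lost their calls. *Vcl* also lost its call without Hypoxia or Normoxia Trim AG replicate 3, and *Cnn1* without Hypoxia Trim AG replicate 1. With Trim AGU, 6 were called (27.0%): *Tpm2* at 1.06 and *Acta1* at 0.78 higher, *Vcl* at -1.02, *Cnn1* at -0.66, *Tpm1* at -0.64 and *Srf* at -0.63 lower. That number fell to 1 without Normoxia Trim AGU replicate 3, to 2 without replicate 1, and to 3 without replicate 2 or Hypoxia Trim AGU replicate 3.

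**Figure D4:**
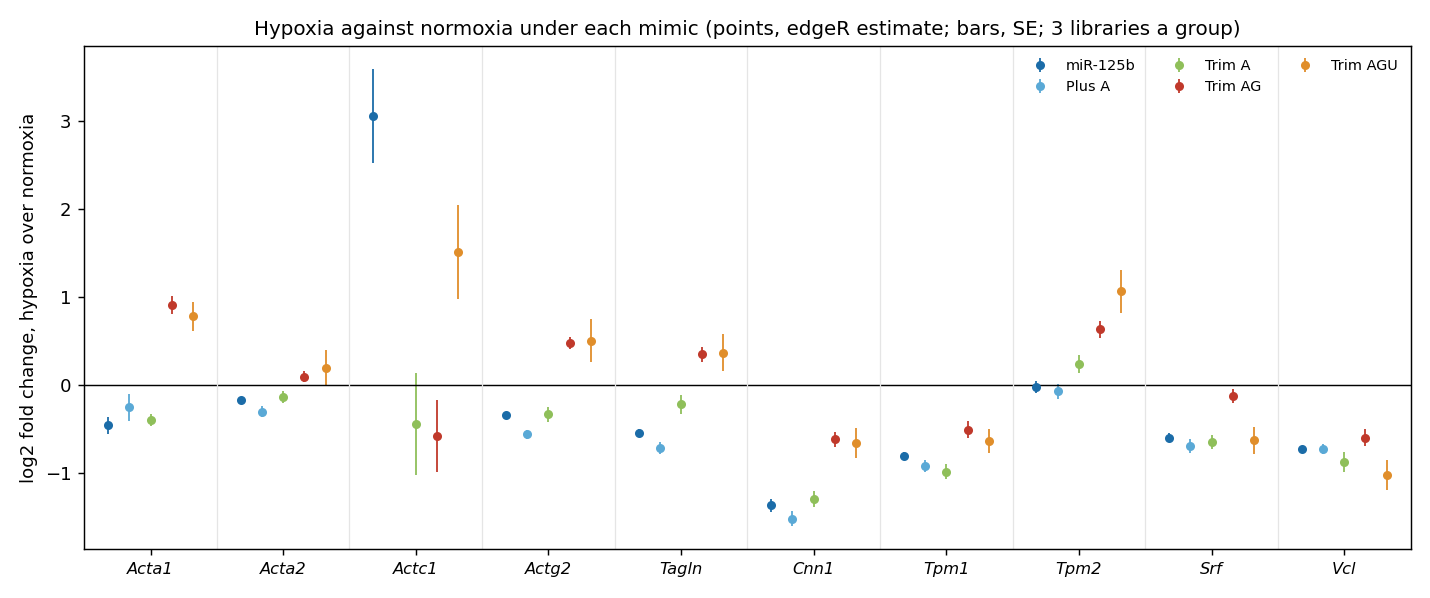
Log2 fold change of hypoxia over normoxia (y axis) for the 10 genes (x axis) under each of 5 mimics, with points for the edgeR estimate and bars for the SE of 3 libraries a group; *Actc1* under Plus A was not tested. *Cnn1*, *Tpm1* and *Vcl* lay below 0 under every mimic, and *Acta1* lay below 0 under Plus A, Trim A and miR-125b and above it, at 0.91 and 0.78, under Trim AG and Trim AGU.

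Whether an isomiR's difference from miR-125b itself depended on oxygen was tested as an interaction. For Trim AG the hypoxic side is the comparison the genes were chosen with, so values are given with no p and no count of calls (11.3% of all genes were called). The difference from miR-125b was larger in hypoxia by 1.33 ± 0.142 for *Acta1*, 0.86 ± 0.101 for *Tagln*, 0.78 ± 0.0719 for *Actg2*, 0.71 ± 0.112 for *Cnn1* and 0.62 ± 0.126 for *Tpm2*, and more negative by -3.68 ± 0.721 for *Actc1*. *Srf* gave 0.43 ± 0.0902 and *Vcl* 0.09 ± 0.108. Without Normoxia miR-125b replicate 1, *Tpm2* gave 0.53. The other interactions use the Hypoxia miR-125b libraries, which were also in view when the genes were chosen. For Trim AGU, *Acta1* was called (0.966%), at 1.26 ± 0.208 with an edgeR adjusted p of 0.0211; it was lost without any Hypoxia miR-125b library, any Normoxia miR-125b library, or Normoxia Trim AGU replicate 1 or 3, and 5 genes were called without Hypoxia Trim AGU replicate 1 and 3 without replicate 2. For Trim A and Plus A 0 of the 10 were called (0.605% and 0.0193%) by edgeR and by DESeq2, with 2 genes each at an unadjusted p under 0.05, and 0 were called by edgeR without Normoxia miR-125b replicate 1 or Normoxia Plus A replicate 1.

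For Normoxia MC the deposited tables hold the authors' group means of normalized counts alone, beside those of Normoxia Plus A, with no spread and no test here. *Actc1* had a mean of 170 in Normoxia MC and 4.41 in Normoxia Plus A, a ratio of 0.0259. *Acta1* had 1597 and 832 (ratio 0.521) and *Tpm1* a ratio of 0.613. The ratios of *Acta2*, *Tpm2*, *Actg2* and *Tagln* were 1.58, 1.52, 1.44 and 1.33, and those of *Srf* and *Vcl* 0.957 and 0.975. The ratio of *Cnn1* was 1.21.

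The wider SRF pathway was described with a list of 68 gene symbols in 6 groups (cofactors, actin dynamics, cytoplasmic actins, contractile genes, adhesion genes and immediate early genes), of which 61 were matched. Some symbols were older and newer names of the same gene. Neither *Mrtfb* nor its older name *Mkl2* was matched, so this cofactor of the MRTF family was not followed. In Trim AG against miR-125b in normoxia, 12 of the 61 were called higher and 2 lower (median log2 change 0.28, against -0.00145 over all genes, of which 7.58% were called higher and 6.36% lower), 6 of the 16 contractile genes and 3 of the 16 adhesion genes among the higher ones and none of the 7 cofactors. The contractile genes with the largest changes were *Myh11*, the smooth muscle myosin heavy chain, at 1.34 ± 0.116 (28.6 ± 3.86 against 10.96 ± 0.870 CPM, SD, n = 3), and *Csrp1*, at 0.74 ± 0.0465. *Myh9* (0.96) and *Itgb1* (0.89) led the adhesion genes, *Diaph3*, a formin that builds actin filaments, rose by 0.91, and *Nr4a1* (0.69) and *Fosb* (0.59) led the immediate early genes. *Actb*, cytoplasmic beta-actin, fell by 1.03 ± 0.0617 (2636 against 5223 CPM), and *Pfn2*, a profilin that binds actin monomers, fell by 0.98. Without Normoxia miR-125b replicate 1, 12 and 2 were called again. *Nr4a1* and *Fosb* lost their calls there, at 0.54 and 0.44, and *Myh9* and *Itgb1* gave 1.10 and 1.11.

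Under miR-125b, 18 of these 61 genes were called lower in hypoxia and 1 higher (median -0.37, against 0.0142 over all genes, of which 11.5% were called lower and 9.34% higher). Without Normoxia miR-125b replicate 1 the counts were again 18 and 1, and each gene named here was called. In the group listed under adhesion, a name of the list and not of each gene's function, 7 genes fell. They were led by *Ankrd1* at -1.78 ± 0.0824 (691 against 2236 CPM) and *Cyr61* at -1.56. The 6 contractile genes that fell were led by *Synpo2* at -0.94 and *Cald1* at -0.90. Among cofactors *Myocd*, myocardin, fell by 1.32 ± 0.108 (8.53 against 20.2 CPM) and *Fhl1* by 0.79. *Diaph3* fell by 1.30, *Nr4a1* by 1.68 and *Fos* by 0.97. Of the 61, 23 were lower in hypoxia under Plus A (12.8% of all genes), 15 under Trim AG (17.8%) and 21 under Trim AGU (13.4%), and 21 of 60 tested under Trim A (14.5%). Against MC in hypoxia, 7 of the 61 were called higher and 6 lower under miR-125b (9.43% and 12.5% of all genes), shares near those over all genes. The counts were 3 and 7 under Plus A (10.5% and 14.4%), 14 and 7 under Trim A (12.4% and 15.7%), 27 and 7 under Trim AG (17.0% and 20.2%), and 19 and 7 under Trim AGU (11.4% and 12.4%).

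Over the 11 group means some of the 10 genes fell into sets that moved together, and *Acta1*, *Actc1* and *Tpm2* were in none. This is a description over points that share the cell line and differ in depth. Pearson's r of log2(CPM + 1) was 0.95 for *Acta2* with *Actg2*, 0.95 for *Acta2* with *Tagln* and 0.97 for *Actg2* with *Tagln*. It was 0.96 for *Cnn1* with *Srf*, 0.95 for *Srf* with *Vcl*, 0.94 for *Cnn1* with *Vcl* and 0.84 for *Tpm1* with *Vcl*. *Actc1* ran against the first set, at -0.85 with *Acta2*, and *Acta1* had no r above 0.53 with any other gene, that with *Actc1*. The highest r of *Tpm2* was 0.67, with *Actg2*. The mean of *Actc1* was 33.3 CPM in Hypoxia MC and at most 1.45 in any other group, so its r rest largely on that 1 group. Of the 45 pairs 9 had r over 0.8 and 10 were below 0, with a median of 0.52. Without replicate 1 of Normoxia miR-125b and Normoxia Plus A no r moved by more than 0.0106.

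**Figure D5:**
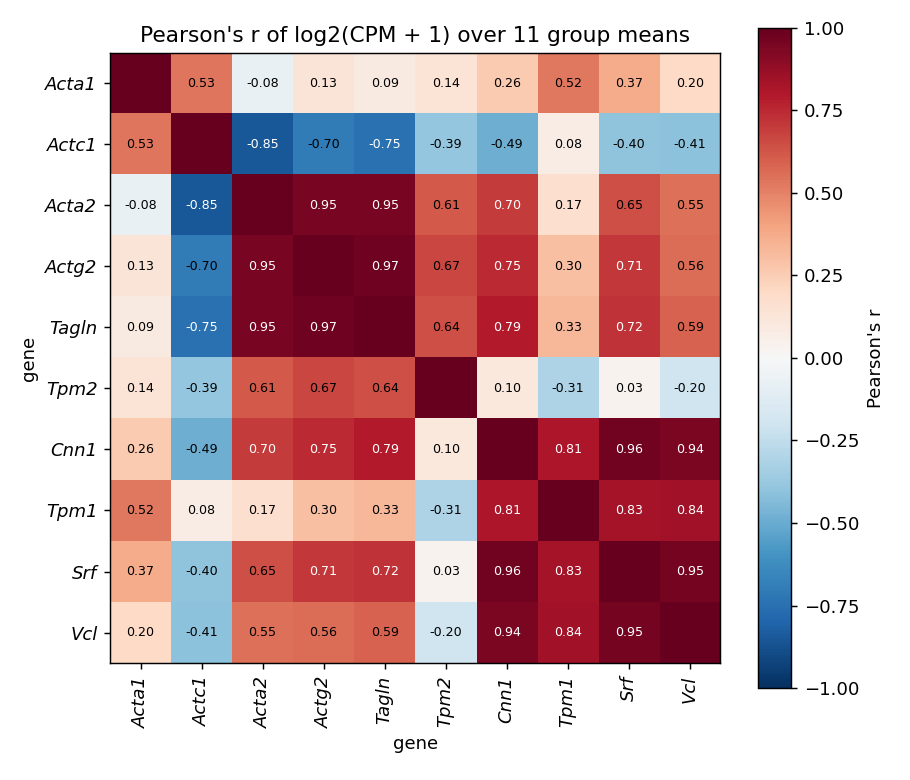
Pearson's r of log2(CPM + 1) between each pair of the 10 genes over 11 group means, from -1 (blue) to 1 (red). *Acta2*, *Actg2* and *Tagln* form a block with r from 0.95 to 0.97, *Cnn1*, *Tpm1*, *Srf* and *Vcl* another with r from 0.81 to 0.96, and *Acta1*, *Actc1* and *Tpm2* lie outside both.

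The genes whose group means were most like those of *Acta1* among 11268 ranked were *Nudt5* (r = 0.95), *Polr3g* (0.91), *AC119015.1* (0.90), *Bak1* (0.90) and *Unc5c* (0.89), all over 11 group means. Their group means spanned less: *Nudt5* ran from 16.2 to 24.6 CPM and *Bak1* from 35.8 to 61.9. Those most like *Actc1* were *Myh3*, the embryonic skeletal myosin heavy chain (r = 0.98, 7.01 to 249 CPM), *Mylpf*, a fast skeletal myosin light chain (0.98, 9.35 to 212 CPM), *Entpd4* (0.98), *Clu* (0.97) and *Xrcc1* (0.97). These r rest largely on Hypoxia MC, and Spearman's correlation for the same genes was 0.76 to 0.94. Those most like *Tagln* were *Mrpl12* (0.97), *Cap1*, an actin-binding protein gene (0.96), *Mrpl28* (0.96), *Vdac2* (0.96) and *Mrpl39* (0.96).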

How the data were processed

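Poly-A RNA of 36 libraries was sequenced by the authors without strand information, so that reads of a gene and an overlapping antisense gene cannot be told apart. The submitters' processing notes name HISAT2 and StringTie, and the genome build is not given in the sources used here. The authors deposited 12 tables, each of a pair of groups: 11 hold raw counts per gene and FPKM per library, and the 12th holds the authors' group means of normalized counts (signal) for Normoxia MC and Normoxia Plus A. Columns with the authors' own fold changes and p-values were not used. The labels number the trimmed mimics, and the study's methods say which bases each lacks.

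Tables were joined on the gene identifier, with a gene absent from a table set to 0. The highest count of a gene left out of another table was 1, and no count conflicted between tables. CPM is per library total. Tests were run with edgeR 4.0.16 in R 4.3.3 (glmQLFit and glmQLFTest, TMM, filterByExpr) on the 6 libraries of each pair of groups, or on 12 for an interaction, and SE were taken from the F statistic. Python 3.11.15 and pandas 2.3.3 were used for tables. DESeq2 1.42.0, no filter, fold limits of none and 2, the replicate number as a block, 1 fit of all 33 libraries and each library left out were alternatives, and leaving replicate 1 of Normoxia miR-125b and Plus A out of the pathway counts, the correlations and their own comparison was added after the data were seen. The scripts were tested on simulated data. Replicates of a group were distinct libraries: their counts differed by a chi-square of 4.75 to 219 per gene, where 1 is sampling noise. The CArG box was searched as CC, a run of A or T bases and GG.

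The genes, lists and rules for naming were chosen with earlier results of these data known. All 10 genes are named. Pathway genes were named if called, at a mean of 1 CPM or more, up to 2 per group by size of change, in Trim AG against miR-125b in normoxia and in hypoxia against normoxia under miR-125b, and pattern neighbours were the 5 named genes with the highest r. The endothelial markers *Pecam1* and *Cdh5* were looked for by name and not found among the genes listed, so no endothelial level is given.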

Additional observations from a re-analysis of the deposited data

Results flagged for a closer look

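The difference between Trim AG and miR-125b was set side by side in hypoxia and normoxia. On the log2 scale it was larger in hypoxia by 1.33 for *Acta1*, 0.86 for *Tagln*, 0.78 for *Actg2*, 0.71 for *Cnn1* and 0.62 for *Tpm2*, and it was more negative by -3.68 for *Actc1*. These genes were picked out by the test of the interaction, whose hypoxic side was in view when the genes were chosen, so the values are a description. *Actc1* rests on few reads in normoxia, 2 to 10 per miR-125b library. The difference between Trim AGU and miR-125b in *Acta1* was likewise larger in hypoxia, by 1.26 on the log2 scale (edgeR adjusted p = 0.0211). The Hypoxia miR-125b libraries in it were in view when the genes were chosen, so this p is not independent of that choice. That call was lost without any 1 of the 6 miR-125b libraries, without Normoxia Trim AGU replicate 1 or 3, and with the replicate block.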

How the results depend on the processing

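Counts of the 10 genes called are given for each alternative that moved one by more than 1.5 times, except in the Trim AG interaction, for which no count is given. The shares of all genes given above hold for the 1.5-fold limit with all libraries. None is set beside the counts here, so these are not read against a background. No called change took the other sign under any alternative run. Of 1484 values of changes that were not called, 47 took the other sign, all for changes of at most 0.11 on the log2 scale with all libraries. Counts in any comparison with the Hypoxia Trim AG libraries are a description. With a fold limit of 2, the count was 3 for miR-125b and 3 for Plus A against MC in hypoxia, 1 for Trim A against miR-125b in hypoxia, and 3 for Trim AG and 0 each for Trim AGU and Trim A against it in normoxia. For hypoxia against normoxia it was 2 under miR-125b and under Trim AGU, 1 under Plus A and under Trim A and 0 under Trim AG. With no fold limit, it was 2 for Plus A against miR-125b in hypoxia, 9 for Trim AG, 6 for Trim AGU and 5 for Trim A in normoxia, and 9 and 7 for hypoxia against normoxia under miR-125b and Trim AG. DESeq2 called 5 for the Trim AGU interaction, and with no filter on low counts 1 was called for the Trim A interaction. The cause was not tested beyond the limit itself.

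Samples with the same replicate number did not deviate together: in 0 of 18 comparisons was the correlation of every pair over 0.1 (range -0.233 to 0.0894), so the numbers were not taken as pairs. With the replicate number as a block, the count was 0 for Trim A and 1 for Trim AGU against miR-125b in hypoxia, 3 for hypoxia against normoxia under Trim AGU and 0 for the Trim AGU interaction.

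With 1 library left out at a time, the count for Trim A against miR-125b ran from 0 to 3 in hypoxia and 0 to 2 in normoxia, and that for Trim AGU from 0 to 6 and 1 to 2. It ran from 2 to 4 and 1 to 6 for hypoxia against normoxia under Trim AG and Trim AGU, 0 to 1 for the Trim A interaction, where the call came without Hypoxia Trim A replicate 1, and 0 to 5 for the Trim AGU interaction. For a group left with 2 libraries, both are assumed to vary like the other group. Of single genes in a comparison, 813 values kept their side of the threshold under the other alternatives, 13 gained and 15 lost a call. TMM scaling changed group means of CPM by a factor of 0.950 to 1.06, and ranking by Spearman's correlation kept 2, 1 and 1 of the 5 genes most like *Acta1*, *Actc1* and *Tagln*. Counts of *Actc1* outside Hypoxia MC were too low for its small folds to be firm.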
